A study of Mus musculus with 10 samples.

Results

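The replication-dependent histone genes were followed across 6 groups of mouse embryonic stem cells, read on 10 arrays of 1 colour. Members were all probes that the scanner files name Hist1h, Hist2h, Hist3h or Hist4h, with 1 probe kept per gene, the one with the highest mean log2 signal over the 10 arrays. This gave 49 genes from 54 probes, out of 36161 genes on the array. By type they were 6 H1, 14 H2A, 12 H2B, 8 H3 and 9 H4 genes. By cluster 36 carried a Hist1 name, 9 a Hist2 name, 3 a Hist3 name and 1 a Hist4 name.

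Each group was 1 line of embryonic stem cells, grown without feeder cells in GMEM medium with FCS and LIF. The wild-type line J1 gave 2 arrays. Line JP-23, wild type and stably expressing Prdm14, gave 2 arrays and is called here the line labelled PRDM14. Line JP-23+3b-3, which expresses Prdm14 and Dnmt3b1 on the wild-type genotype, gave 2 arrays and is called the line labelled PRDM14_DNMT3B. Line 8bb (Dnmt3b-/-) gave 2 arrays. Line 36 (Dnmt1-/-) gave 1 array, and so did line 19-1 (Dnmt1-/-Dnmt3a-/-Dnmt3b-/-), called the triple knockout. The labels do not say what drives the transgenes, nor whether the replicates came from different cultures. The p-values therefore cover array-to-array spread alone, which could be purely technical. The series was set up to ask what demethylation of DNA by excess PRDM14 does to gene expression.

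The probes of the targeted genes were read first. Dnmt1 fell by 4.14 and 4.61 log2 units against J1 in the Dnmt1-/- line and the triple knockout. Dnmt3b fell by 5.93 in the Dnmt3b-/- line and by 5.59 in the triple knockout. Dnmt3a fell by 6.12 in the triple knockout, where its signal was not well above background, so the size is not measured. The Prdm14 probe did not follow 2 of the labels. It fell by 4.18 in the line labelled PRDM14. In the line labelled PRDM14_DNMT3B it fell by 6.39 to a signal not well above background, so this size too is not measured. The Dnmt3b probe fell by 3.45 in the line labelled PRDM14_DNMT3B and by 2.56 in the line labelled PRDM14. The sources used here do not say whether these probes lie inside the transgenes, and the group names are used as labels only. All 10 embryonic stem cell markers tested were well above background on all 10 arrays. Slide 1 held J1 replicate 1, replicate 1 of the line labelled PRDM14_DNMT3B, Dnmt3b-/- replicate 1, Dnmt1-/- and the triple knockout. Slide 2 held the second replicates of J1, the line labelled PRDM14_DNMT3B and Dnmt3b-/-, while the arrays of the line labelled PRDM14 lay alone on slides 3 and 4, where slide and group cannot be told apart.

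Replication-dependent histone genes supply the H1, H2A, H2B, H3 and H4 proteins that package newly made DNA, and their transcription peaks in S phase. Most lie in clusters, lack introns and come in many near-identical copies. Their mRNAs typically end in a conserved stem-loop, bound by the protein SLBP, in place of a poly(A) tail. Transcripts that run on to a downstream poly(A) signal are also known. The labelling kit used here primes RNA at poly(A), so a level below is a level of RNA that the kit could copy.

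Near-copy probes come first, because they set what a gene name means here. A near-copy probe is a 60-base probe that aligned with the probe of another member and holds no stem-loop. Alignment was without gaps, over at least 24 bases and at 75% identity or more. The 6 probes with the whole stem-loop also aligned by this rule, for example Hist2h2aa1 with Hist1h3g at 23 of 27 bases. These are counted apart as stem-loop probes. Without them, 15 of the 49 genes had a near-copy probe. They were 7 H2A genes (Hist1h2af, Hist1h2ag, Hist1h2ah, Hist1h2ak, Hist1h2an, Hist2h2aa2 and Hist2h2ac), the H3 genes Hist1h3c and Hist1h3f, and 6 H4 genes (Hist1h4c, Hist1h4d, Hist1h4i, Hist1h4j, Hist1h4k and Hist2h4). The following 4 H2A probes show how little separates them. Each ends in a stop triplet with no other in that frame, and capitals mark the bases that differ from the Hist1h2af probe, 5 in each of the other probes.
Hist1h2af: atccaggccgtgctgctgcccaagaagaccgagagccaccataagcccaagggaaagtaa
Hist1h2ak: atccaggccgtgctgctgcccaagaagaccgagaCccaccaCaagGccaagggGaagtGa
Hist1h2an: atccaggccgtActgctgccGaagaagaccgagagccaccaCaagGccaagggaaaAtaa
Hist2h2aa2: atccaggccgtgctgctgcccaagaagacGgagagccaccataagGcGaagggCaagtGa

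A second kind of probe carries the stem-loop itself. The motif searched was the histone stem-loop, 16 letters long with the variable positions left free, on both strands, and 6 of the 55681 probes on the array hold it (0.0108%), all 6 of them members: Hist1h3a, Hist1h3g, Hist1h3i, Hist1h4m, Hist2h2bb and Hist2h2aa1. None holds it on the other strand. The Hist1h2ab probe ends within the motif and the Hist1h2ae probe begins within it, which makes 8 stem-loop probes. In 5 of the probes with the whole motif it lies at the 3′ end, with 3 to 6 bases after it. The Hist2h2aa1 probe has 38 bases after it, and that of Hist1h2ae has 48. The motif and the bases around it are shown for 4 probes, with the motif in capitals.
Hist2h2aa1: aaaaGGCTCTTTTCAGAGCCaccca
Hist1h3g: taaaGGCTCTTCTTAGAGCCaccca
Hist1h4m: taaaGGCCCTTTTCAGGGCCatcca
Hist2h2bb: aaaaGGCTCTTTTCAGAGCCacttt

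The other 26 genes had neither feature. Exon and UTR positions of the probes are not given, for want of an annotation on their build. These 3 kinds of probe were set apart after the values were seen, and they are used as a description.

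A level below is a log2 signal after subtracting that array's 75th percentile, and a difference is in log2 units with the SE of the limma fit. A gene counts as called where its adjusted p (Benjamini-Hochberg, over the 23626 genes tested) was under 0.05. Of the 49 genes, 46 were tested. Hist1h1d, Hist1h2bq and Hist3h2bb-ps had no array with a signal well above background, and 42 members were well above background on all 10. Hist1h2ac passed through the single triple knockout array and has no measured level elsewhere. Hist2h2be, Hist2h3c2-ps and Hist1h2bg were below that mark on 2, 2 and 1 of the J1 arrays and passed this filter only through other groups, where they were higher, so the filter partly set their place among the rises.

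In the reported fit, which had no block for slide or replicate, more of the called histone genes were higher than lower in each of the 5 comparisons with J1. In Dnmt1-/- this did not hold with the slide as a fixed block, as given below. In the line labelled PRDM14, 17 of 46 members were called, 14 higher and 3 lower, where 39.7% of all genes were called, 20.9% higher and 18.8% lower. In the line labelled PRDM14_DNMT3B it was 14 of 46, 11 higher and 3 lower, where 39.3% of all genes were called, 19.5% higher and 19.8% lower. The Dnmt3b-/- line had 10 called members, 8 higher and 2 lower, against 21.0% of all genes, 10.8% higher and 10.2% lower. The Dnmt1-/- line had 15, 11 higher and 4 lower, against 28.2% of all genes, 13.1% higher and 15.1% lower. The triple knockout had 14, 13 higher and 1 lower, against 28.4% of all genes, 13.9% higher and 14.6% lower. In the line labelled PRDM14_DNMT3B the share of members called either way, 14 of 46, was below the share of all genes (39.3%). In the other comparisons, with 17, 10, 15 and 14 of 46, it lay close to the share of all genes.

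The median difference of the 46 members was 0.16, 0.00, -0.10, -0.12 and 0.10 in the same order, and that of all genes was -0.03, -0.07, -0.10, -0.15 and -0.07. Scaling moved the split: with quantile normalization the Dnmt3b-/- line had 8 members called higher and 0 lower, and the Dnmt1-/- line 11 higher and 2 lower. With the slide as a fixed block, fitted without the arrays of the line labelled PRDM14, the Dnmt1-/- line had 8 members higher and 10 lower. Of all 23626 genes, 3211 were then higher and 5124 lower. The 5 comparisons share the 2 J1 arrays.

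**Figure D1:**
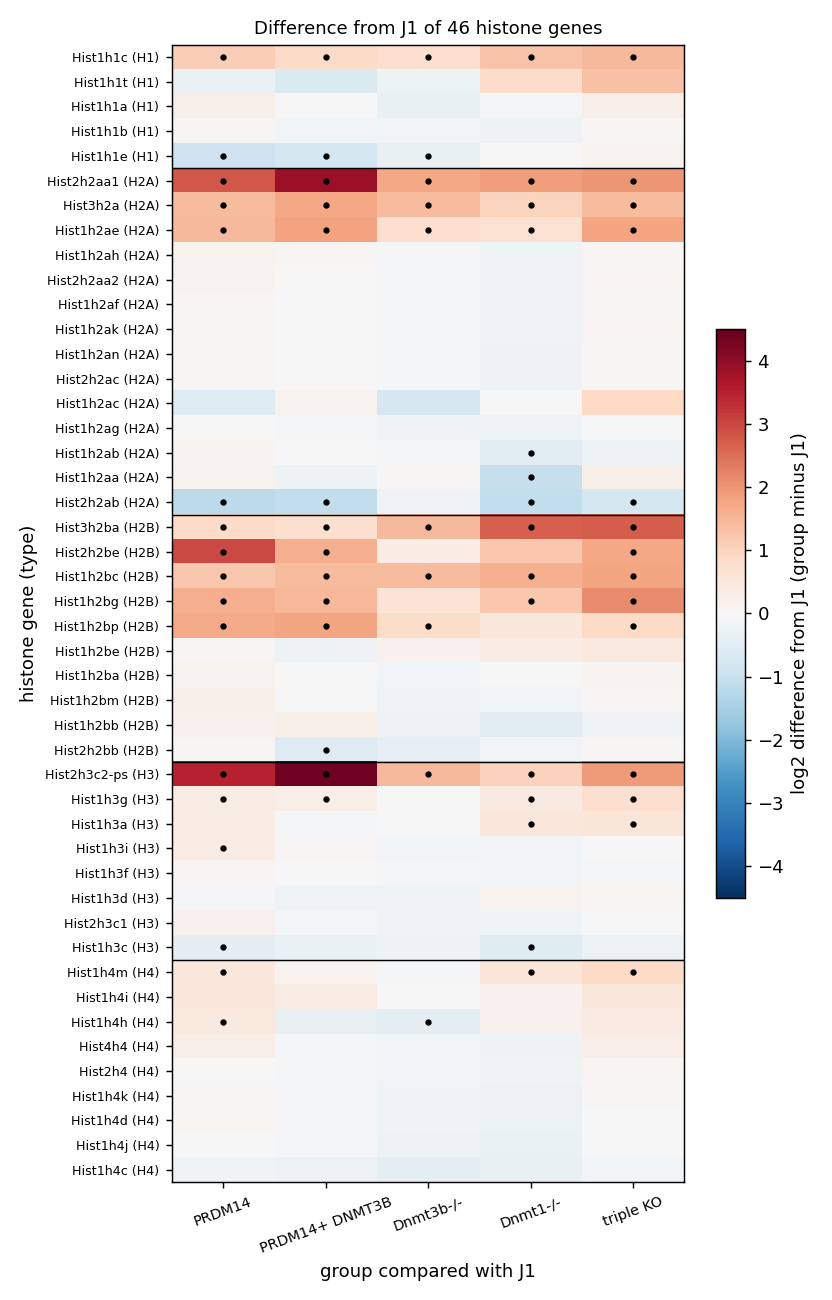
Differences from J1 (log2 units, colour) of the 46 tested histone genes (rows, grouped by histone type) in the 5 other groups (columns), with a dot where the adjusted p was under 0.05. The strong rises sit in Hist2h2aa1, Hist2h3c2-ps, Hist2h2be and Hist3h2ba, while most H4 rows and the near-copy H2A rows stay close to 0.

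Of the 46 members, 7 were called higher than J1 in all 5 comparisons, where 2.56% of all genes were. They were Hist1h1c, Hist1h2ae, Hist1h2bc, Hist2h2aa1, Hist2h3c2-ps, Hist3h2a and Hist3h2ba. Of these, Hist2h3c2-ps passed the filter only through groups where it was higher than in J1. With normexp background correction Hist1h2ae and Hist2h3c2-ps did not pass in Dnmt3b-/- and Dnmt1-/-. No member was called lower in all 5 by limma, where 2.11% of all genes were, and 24 members were called in none of the 7 comparisons made, against 34.3% of all genes. Read array by array, both J1 arrays lay below the other 8 arrays for 9 members, those 7 with Hist1h2bg and Hist1h2bp, where 7.36% of all genes did so. Both J1 arrays lay above the other 8 for Hist1h3c and Hist2h2ab, where 10.9% of all genes did so.

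The near-copy probes hardly moved between groups. None was called in the line labelled PRDM14_DNMT3B, the Dnmt3b-/- line or the triple knockout against J1 by limma, with 1, 1 and 0 of the 15 at an unadjusted p under 0.05, and their differences ran from -0.42 to 0.49 over those 3 comparisons. In the line labelled PRDM14 and in the Dnmt1-/- line 1 of 15 was called, Hist1h3c in both, which fell by 0.40 ± 0.11 (SE) and by 0.53 ± 0.13. Without 1 array in turn those 2 calls were kept in 2 of 8 fits each, with an adjusted p of up to 0.124 and 0.0892. Hist2h2aa2 is typical of the others. Its level was 10.00 and 9.64 on the J1 arrays, 9.96 and 10.02 in the line labelled PRDM14, 10.01 and 9.65 in the line labelled PRDM14_DNMT3B, 9.91 and 9.58 in Dnmt3b-/-, 9.65 in Dnmt1-/- and 9.91 in the triple knockout. Each group overlapped the range of the J1 arrays, and both arrays of the line labelled PRDM14 lay above all 4 knockout arrays. Replicates 1 and 2 of J1 differed by more than any group mean did from J1.

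The replicate arrays on slides 1 and 2 differed for these genes. Centred on each probe's mean over the 10 arrays, the median of the 15 near-copy probes was 0.20 on J1 replicate 1 and -0.13 on J1 replicate 2, and 0.13 and -0.09 in the line labelled PRDM14_DNMT3B. It was 0.03 and -0.21 in Dnmt3b-/-, -0.18 in Dnmt1-/- and 0.07 in the triple knockout. On slides 3 and 4 it was 0.11 on both arrays of the line labelled PRDM14. In each of the 3 groups that lay on both slides the array on slide 1 was the higher, and over the 46 tested members the median of replicate 1 minus replicate 2 was 0.246 in J1, 0.193 in the line labelled PRDM14_DNMT3B, 0.155 in Dnmt3b-/- and 0.035 in the line labelled PRDM14. The part of slide in the small differences was not tested beyond the values within slides.

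**Figure D2:**
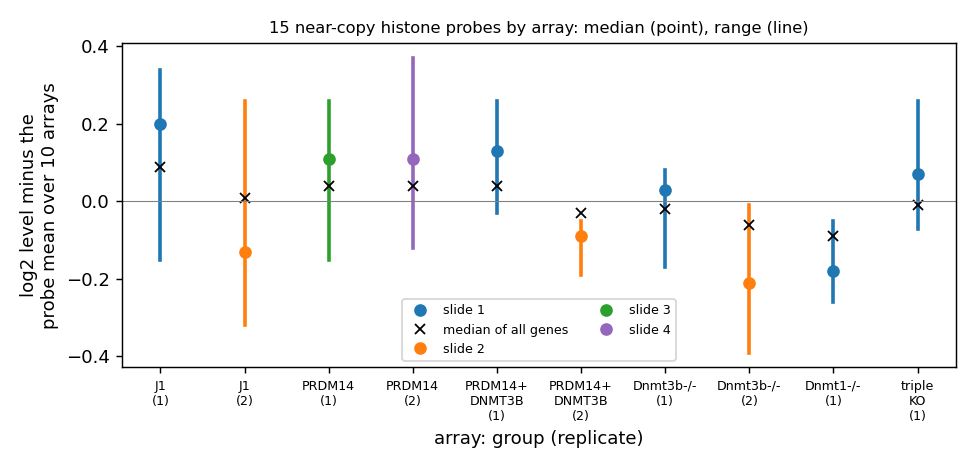
Levels of the 15 near-copy histone probes on each array (log2 level minus the probe's mean over the 10 arrays): points are medians, lines span the lowest to the highest probe, colours are slides, and crosses are the median of all 23626 genes tested. J1, the line labelled PRDM14_DNMT3B and Dnmt3b-/- each had a higher median on slide 1 than on slide 2.

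Among the linker histones, the H1 proteins that bind DNA between nucleosomes, Hist1h1c rose and Hist1h1e fell. Hist1h1c was at -1.30 and -1.40 on the J1 arrays, -0.33 and -0.18 in the line labelled PRDM14, -0.45 and -0.51 in the line labelled PRDM14_DNMT3B, -0.71 and -0.49 in Dnmt3b-/-, -0.08 in Dnmt1-/- and 0.10 in the triple knockout. Every other array lay above both J1 arrays. The differences were 1.09 ± 0.11, 0.87 ± 0.11, 0.75 ± 0.11, 1.27 ± 0.14 and 1.45 ± 0.14 in the same order, with adjusted p from 0.000913 to 0.00881.

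Hist1h1e stood at 5.90 and 5.84 on the J1 arrays, 4.96 and 4.92 in the line labelled PRDM14, and 5.08 and 5.10 in the line labelled PRDM14_DNMT3B. It was at 5.61 and 5.44 in Dnmt3b-/-, 5.84 in Dnmt1-/- and 6.04 in the triple knockout. The lines labelled PRDM14 and PRDM14_DNMT3B were the lowest 4 arrays and did not overlap any other group. Against J1 it fell by 0.93 ± 0.09 (adjusted p = 0.000697) and by 0.78 ± 0.09 (adjusted p = 0.00137) in them. The fall of 0.34 ± 0.09 in Dnmt3b-/- had an adjusted p of 0.0464 and was lost without any 1 of the 8 arrays left out in turn, with an adjusted p of up to 0.207, with the slide as a fixed block (0.0522) and with quantile normalization (0.135). Hist1h1a and Hist1h1b did not pass against J1 in any group, with differences from -0.32 to 0.28. With the replicate number as a block Hist1h1a passed in the line labelled PRDM14 (0.28, adjusted p = 0.0213) and in Dnmt3b-/- (-0.32, adjusted p = 0.0243). In Dnmt3b-/- it also passed with normexp (-0.31, adjusted p = 0.0309) and with the slide as a fixed block (-0.32, adjusted p = 0.0414). Hist1h1t, the testis-specific H1 gene, had the widest range of group means among them. It differed by 0.81 ± 0.39 in Dnmt1-/- and by 1.32 ± 0.39 in the triple knockout, neither past the threshold (adjusted p = 0.176 and 0.0532). In the triple knockout Hist1h1t passed with the replicate block (1.11, adjusted p = 0.0440). It also passed there with normexp (1.06), quantile normalization (1.34) and the slide as a fixed block (1.03). With the slide block Hist1h1t passed as lower in the line labelled PRDM14_DNMT3B (-0.64, adjusted p = 0.0261).

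H2A genes divided into 3 that rose against J1 in every group, Hist2h2aa1, Hist1h2ae and Hist3h2a, and 1 that fell in 4 of 5, Hist2h2ab. H2A pairs with H2B on the outer face of the nucleosome. Of the 14 H2A genes, 3 were called higher in each of the 5 comparisons, and 1, 1, 0, 3 and 1 were called lower in the line labelled PRDM14, the line labelled PRDM14_DNMT3B, Dnmt3b-/-, Dnmt1-/- and the triple knockout.

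Hist2h2aa1 (H2ac18 in RefSeq), whose probe lies at chr3:96049949-96050008 on the + strand of mm9, was at -2.90 and -2.50 on the J1 arrays. It reached 0.12 and 0.08 in the line labelled PRDM14, 1.27 and 1.07 in the line labelled PRDM14_DNMT3B, -0.95 on both Dnmt3b-/- arrays, -0.81 in Dnmt1-/- and -0.70 in the triple knockout. No group overlapped J1, and the 2 lines with Prdm14 labels lay above all knockout arrays. The rises against J1 were 2.80 ± 0.15 (6.96-fold), 3.87 ± 0.15 (14.7-fold), 1.75 ± 0.15 (3.37-fold), 1.89 ± 0.18 (3.70-fold) and 2.00 ± 0.18 (4.01-fold), with adjusted p from 5.11e-05 to 0.00187. Background correction set the size: with normexp the rises were 1.67, 2.66, 0.86, 0.97 and 1.06.

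The probe named Hist2h2aa2 (H2ac19 in RefSeq) ends 52 bases before the Hist2h2aa1 probe starts, on the same strand (chr3:96049837-96049896, mm9). It is a near copy of other H2A genes and moved by 0.17, 0.01, -0.07, -0.17 and 0.09 in the same 5 comparisons, none past the threshold. The neighbouring probes thus gave different readings of 1 stretch of chromosome 3: the one before the stem-loop did not pass in any group, except in Dnmt1-/- with the slide as a fixed block (-0.34, adjusted p = 0.0404), and the one that starts 6 bases before it and runs 38 bases past it rose in all 5.

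Hist1h2ae (H2ac8), whose probe begins within the stem-loop, also rose in all 5. It was at -2.43 and -2.34 on the J1 arrays, -0.95 and -0.89 in the line labelled PRDM14, -0.58 and -0.57 in the line labelled PRDM14_DNMT3B, -1.60 and -1.63 in Dnmt3b-/-, -1.71 in Dnmt1-/- and -0.59 in the triple knockout. All 8 other arrays were above J1. It rose by 1.46 ± 0.08, 1.81 ± 0.08, 0.77 ± 0.08, 0.67 ± 0.10 and 1.79 ± 0.10, and with normexp by 0.76, 0.92, 0.22, 0.20 and 0.96, of which those in Dnmt3b-/- and Dnmt1-/- did not pass.

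Hist3h2a (H2aw), in the Hist3 cluster on chromosome 11 (probe at chr11:58768954-58769013 on mm9), was at -1.10 and -1.17 in J1, 0.15 and 0.45 in the line labelled PRDM14, 0.58 and 0.63 in the line labelled PRDM14_DNMT3B, 0.26 and 0.30 in Dnmt3b-/-, -0.14 in Dnmt1-/- and 0.31 in the triple knockout. Again J1 was lowest, with no overlap. The rises were 1.43 ± 0.12, 1.74 ± 0.12, 1.41 ± 0.12, 0.99 ± 0.14 and 1.44 ± 0.14, with adjusted p from 0.000211 to 0.00637.

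Hist2h2ab (H2ac21), also on chromosome 3, went the other way. It was at -0.27 and -0.39 in J1 and at -0.47 and -0.60 in Dnmt3b-/-, against -1.40 and -1.60 in the line labelled PRDM14, -1.35 and -1.57 in the line labelled PRDM14_DNMT3B, -1.44 in Dnmt1-/- and -1.12 in the triple knockout. J1 and Dnmt3b-/- lay above all arrays of the other 4 groups. It fell by 1.17 ± 0.12, 1.12 ± 0.12, 1.11 ± 0.15 and 0.79 ± 0.15 in those groups (adjusted p from 0.00098 to 0.0141), and the difference in Dnmt3b-/- was -0.20 ± 0.12 (adjusted p = 0.315). In the Dnmt1-/- line Hist1h2aa (H2ac1) fell by 1.05 ± 0.20 and Hist1h2ab, whose probe ends in the stem-loop, by 0.52 ± 0.11; the latter did not pass with quantile normalization (-0.25, adjusted p = 0.118) and kept its call in 7 of the 8 fits without 1 array, with an adjusted p of up to 0.0595. Each of these H2A genes had a single probe.

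**Figure D3:**
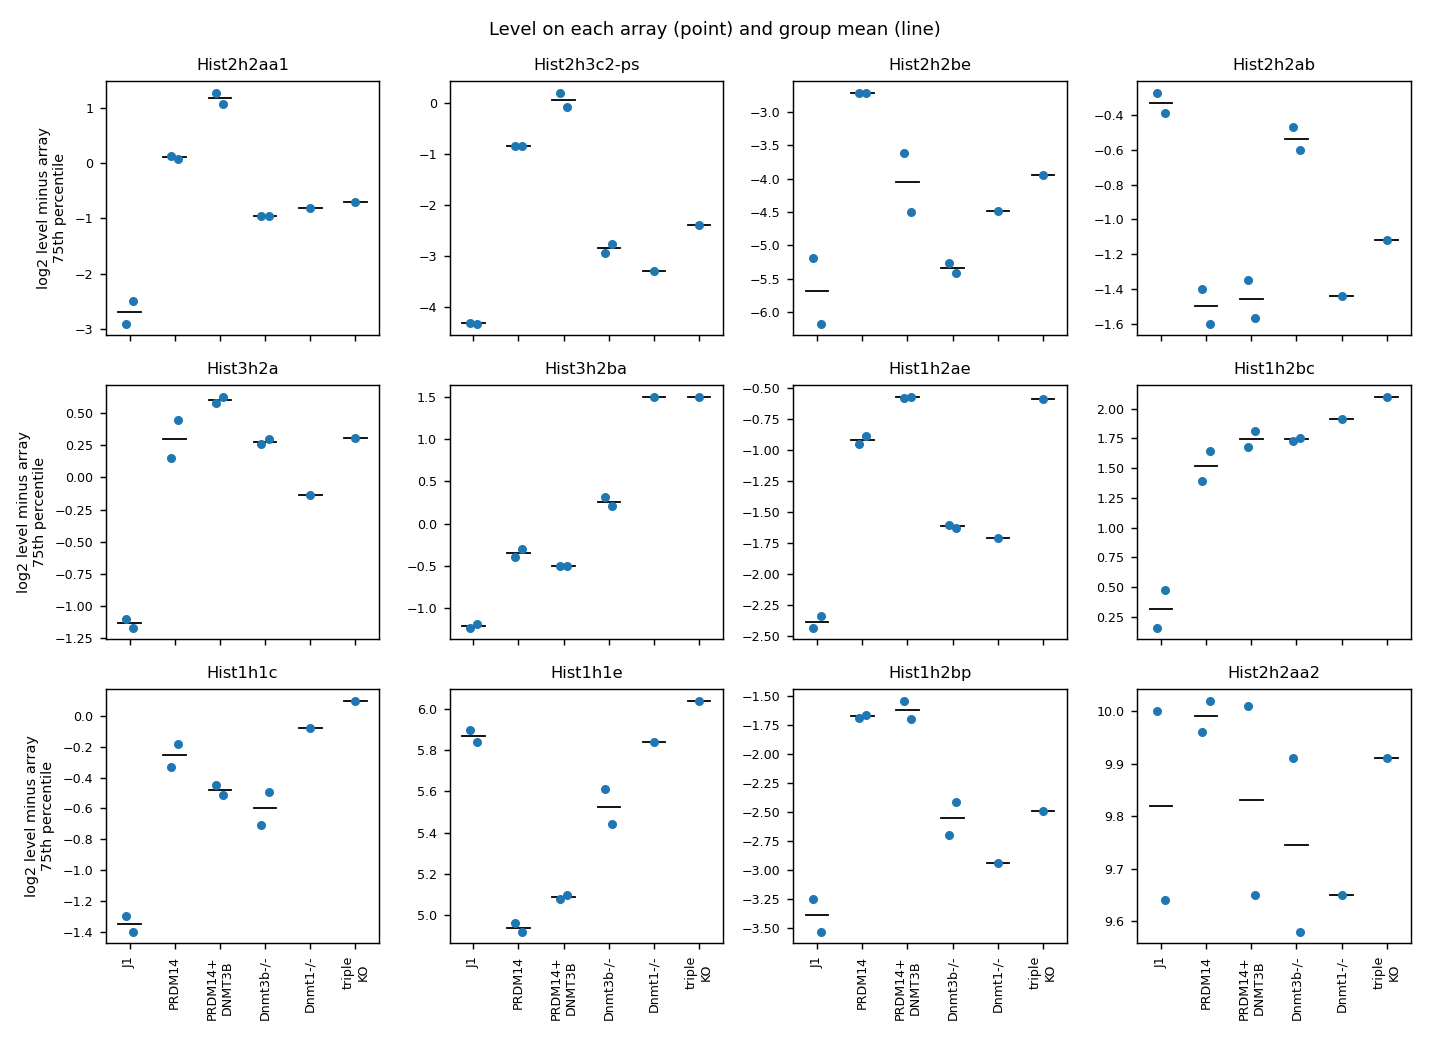
Levels of 12 histone genes on each of the 10 arrays (points; log2 signal minus the array's 75th percentile) with the group mean as a line; each panel has its own scale. J1 sits lowest in 8 panels of rising genes, highest in Hist2h2ab, and among the other groups in Hist2h2aa2.

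Of 10 H2B genes tested, 5, 5, 3, 3 and 5 rose in the 5 comparisons, with a single fall, Hist2h2bb in the line labelled PRDM14_DNMT3B, where 20.9%, 19.5%, 10.8%, 13.1% and 13.9% of all genes were called higher. Their median differences were 0.54, 0.49, 0.26, 0.40 and 0.67. No test compared the types. The 5 genes were Hist1h2bc, Hist1h2bg, Hist1h2bp, Hist2h2be and Hist3h2ba, and none of their probes is a near copy or holds the stem-loop. Hist1h2bg and Hist2h2be passed the filter only through groups where they were higher than in J1. The filter thus partly set these counts and medians.

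Hist3h2ba (H2bu2), in the same cluster as Hist3h2a (probe at chr11:58762964-58763023, mm9), was highest in Dnmt1-/- and the triple knockout. It was at -1.23 and -1.19 in J1, -0.39 and -0.30 in the line labelled PRDM14, -0.50 on both arrays of the line labelled PRDM14_DNMT3B, 0.31 and 0.21 in Dnmt3b-/-, 1.49 in Dnmt1-/- and 1.50 in the triple knockout. The order was J1, then the lines labelled PRDM14_DNMT3B and PRDM14, then Dnmt3b-/-, then the other knockouts, and of the neighbours in this order the lines labelled PRDM14_DNMT3B and PRDM14 did not differ past the threshold (-0.16 ± 0.08, adjusted p = 0.24), while the later neighbours were not compared with each other. The rises against J1 were 0.86 ± 0.08, 0.71 ± 0.08, 1.47 ± 0.08, 2.69 ± 0.10 (6.47-fold, adjusted p = 0.000187) and 2.71 ± 0.10 (6.56-fold, adjusted p = 0.000233). Beside it, the median difference of the 1740 tested genes on chromosome 11 in Dnmt1-/- was 0.03, where that of all genes was -0.15.

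Hist1h2bc (H2bc4) was at 0.16 and 0.48 in J1, 1.39 and 1.64 in the line labelled PRDM14, 1.68 and 1.81 in the line labelled PRDM14_DNMT3B, 1.73 and 1.75 in Dnmt3b-/-, 1.91 in Dnmt1-/- and 2.10 in the triple knockout. The other groups were close together and J1 stood below them all. It rose by 1.20 ± 0.15, 1.43 ± 0.15, 1.42 ± 0.15, 1.59 ± 0.18 and 1.78 ± 0.18 (adjusted p from 0.00088 to 0.00289).

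Hist1h2bp (H2bc22) was at -3.25 and -3.53 in J1, -1.69 and -1.66 in the line labelled PRDM14 and -1.54 and -1.70 in the line labelled PRDM14_DNMT3B. It was at -2.70 and -2.41 in Dnmt3b-/-, -2.94 in Dnmt1-/- and -2.49 in the triple knockout. It rose by 1.71 ± 0.15, 1.77 ± 0.15, 0.84 ± 0.15 and, in the triple knockout, 0.90 ± 0.18. The last 2 calls were kept in 6 and 7 of the 8 fits without 1 array, with an adjusted p of up to 0.0662 and 0.0522, and were lost with normexp (0.18 and 0.27), and the value of 0.46 ± 0.18 in Dnmt1-/- did not pass. Hist1h2bg (H2bc8), at -3.50 and -4.10 in J1, where 1 of the 2 arrays was well above background, rose by 1.62 ± 0.21, 1.50 ± 0.21, 1.22 ± 0.26 and 2.14 ± 0.26 in the line labelled PRDM14, the line labelled PRDM14_DNMT3B, Dnmt1-/- and the triple knockout. In Dnmt3b-/- its difference of 0.60 ± 0.21 did not pass. The call in Dnmt1-/- was lost with the slide as a fixed block (1.15, adjusted p = 0.0689) and with normexp, where the 4 differences were 0.51, 0.41, 0.24 and 0.79.

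Hist2h2be (H2bc21) was a dim probe. Its signal did not stand well above background in J1, Dnmt3b-/- or Dnmt1-/-, and it was at -2.72 and -2.71 in the line labelled PRDM14, at least 2.61-fold over J1 (adjusted p = 0.00247). Such a bound sets the bright group's mean against the lowest signal well above background on the dim arrays. In the triple knockout the bound was at least 1.12-fold. In the line labelled PRDM14_DNMT3B the same calculation gave 1.03-fold. There 1 of 2 arrays measured the gene and the mean includes the other array, so this is not a strict bound. These 2 calls were kept in 6 and 3 of the 8 fits without 1 array, with an adjusted p of up to 0.0905 and 0.107, and were lost with normexp (0.13 and 0.17), which gave 0.55 in the line labelled PRDM14. Hist2h2bb (H2bc18), a stem-loop probe, was at 4.95 and 4.86 in J1 and at 4.40 and 4.28 in the line labelled PRDM14_DNMT3B, a fall of 0.57 ± 0.11 (adjusted p = 0.00958) that did not pass without the second array of that line (-0.51, adjusted p = 0.0543). With the replicate block it also passed in Dnmt3b-/- (-0.36, adjusted p = 0.0302). The remaining tested H2B genes, Hist1h2ba, Hist1h2bb, Hist1h2be and Hist1h2bm, passed in none of the 7 comparisons. With the replicate block Hist1h2be passed in both comparisons of the line labelled PRDM14_DNMT3B with another line, at -0.29 against the line labelled PRDM14 and -0.42 against Dnmt3b-/-.

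Among H3 genes, Hist2h3c2-ps (H3c15 in RefSeq, probe at chr3:96042034-96042093 on the - strand of mm9) had the widest range of group means of all members. It was at -4.32 and -4.33 in J1, where neither array was well above background, -0.85 and -0.84 in the line labelled PRDM14, 0.20 and -0.08 in the line labelled PRDM14_DNMT3B, -2.94 and -2.77 in Dnmt3b-/-, -3.29 in Dnmt1-/- and -2.39 in the triple knockout. J1 lay below all of them. The folds over J1 are bounds: at least 9.58-fold, 17.9-fold, 2.37-fold, 1.75-fold and 3.28-fold, with adjusted p from 2.48e-05 to 0.00624. With normexp the differences were 1.34, 2.14, 0.28, 0.12 and 0.57, and those in Dnmt3b-/- and Dnmt1-/- did not pass. Another H3 gene of the cluster, Hist2h3c1 (H3c14), was at 4.65 and 4.27 in J1 and within -0.19 to 0.18 of it in the 5 comparisons, none past the threshold; with the replicate block it passed in Dnmt1-/- (-0.33, adjusted p = 0.0405).

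The other rises in H3 were small and came from probes that hold the stem-loop. Hist1h3g rose by 0.35 ± 0.08, 0.29 ± 0.08, 0.39 ± 0.10 and 0.77 ± 0.10 in the line labelled PRDM14, the line labelled PRDM14_DNMT3B, Dnmt1-/- and the triple knockout, and the first 3 calls were kept in 5, 0 and 0 of the 8 fits without 1 array (adjusted p up to 0.0835, 0.133 and 0.0963). Hist1h3a rose by 0.50 ± 0.14 in Dnmt1-/- and by 0.56 ± 0.14 in the triple knockout, kept in 2 of 8 such fits each, with an adjusted p of up to 0.127 and 0.102, and with the replicate block it passed in the line labelled PRDM14 too (0.34, adjusted p = 0.0247). Hist1h3i rose by 0.33 ± 0.10 in the line labelled PRDM14, kept in 2 of 8 with an adjusted p of up to 0.193. Hist1h3c, a near copy, passed in the line labelled PRDM14_DNMT3B with the block (-0.31, adjusted p = 0.0463). Hist1h3d, at 7.22 and 6.93 in J1, passed nowhere.

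Of 9 H4 genes tested, 2 were called higher in the line labelled PRDM14, 1 higher in Dnmt1-/-, 1 higher in the triple knockout and 1 lower in Dnmt3b-/-, where 20.9%, 13.1% and 13.9% of all genes were called higher and 10.2% lower. In the line labelled PRDM14_DNMT3B limma called 0 of 9, with 1 at an unadjusted p under 0.05, where 39.3% of all genes were called. Hist1h4m, a stem-loop probe, was at 0.02 and -0.06 in J1, 0.59 and 0.40 in the line labelled PRDM14, 0.51 in Dnmt1-/- and 0.84 in the triple knockout, and rose by 0.52 ± 0.12, 0.53 ± 0.15 and 0.86 ± 0.15. The call in the triple knockout was kept without each array in turn, while the others were kept in 5 and 0 of 8 fits (adjusted p up to 0.0992 and 0.127). Hist1h4h rose by 0.45 ± 0.10 in the line labelled PRDM14 (5 of 8, adjusted p up to 0.0792) and fell by 0.43 ± 0.10 in Dnmt3b-/- (0 of 8, up to 0.158). The H4 genes Hist2h4, Hist1h4d, Hist1h4k and Hist4h4 passed in none of the 7 comparisons. With the replicate block Hist1h4k passed in Dnmt1-/- (-0.38, adjusted p = 0.0242), Hist1h4i in the line labelled PRDM14 (0.52, adjusted p = 0.036), and Hist1h4c in the line labelled PRDM14_DNMT3B (-0.25), in Dnmt3b-/- (-0.42) and in Dnmt1-/- (-0.39). Hist2h4 is 1 of 5 genes with a second probe, which differed from J1 by -0.49 in the line labelled PRDM14_DNMT3B where the first gave -0.04, neither past the threshold. The second probe of Hist1h4i, in a fit over all probes, passed in the line labelled PRDM14_DNMT3B against J1 (0.56, adjusted p = 0.027) and against Dnmt3b-/- (0.55, adjusted p = 0.0363), where the first gave 0.32 and 0.33 and did not pass.

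By kind of probe, 5, 4, 2, 6 and 5 of the 8 stem-loop probes were called in the 5 comparisons, with medians of 0.34, 0.10, -0.04, 0.45 and 0.66. Of the 23 tested probes with neither feature, 11, 10, 8, 8 and 9 were called, with medians of 0.22, -0.02, -0.11, 0.17 and 0.38. Of the 15 near copies, 1, 0, 0, 1 and 0 were called, with medians of 0.07, 0.00, -0.10, -0.21 and 0.04. These counts stand beside the 39.7%, 39.3%, 21.0%, 28.2% and 28.4% of all genes called. With the slide as a fixed block 5 near-copy H2A probes and Hist1h4k passed as lower in Dnmt1-/-, from -0.31 to -0.38 with adjusted p from 0.0404 to 0.0479.

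**Figure D4:**
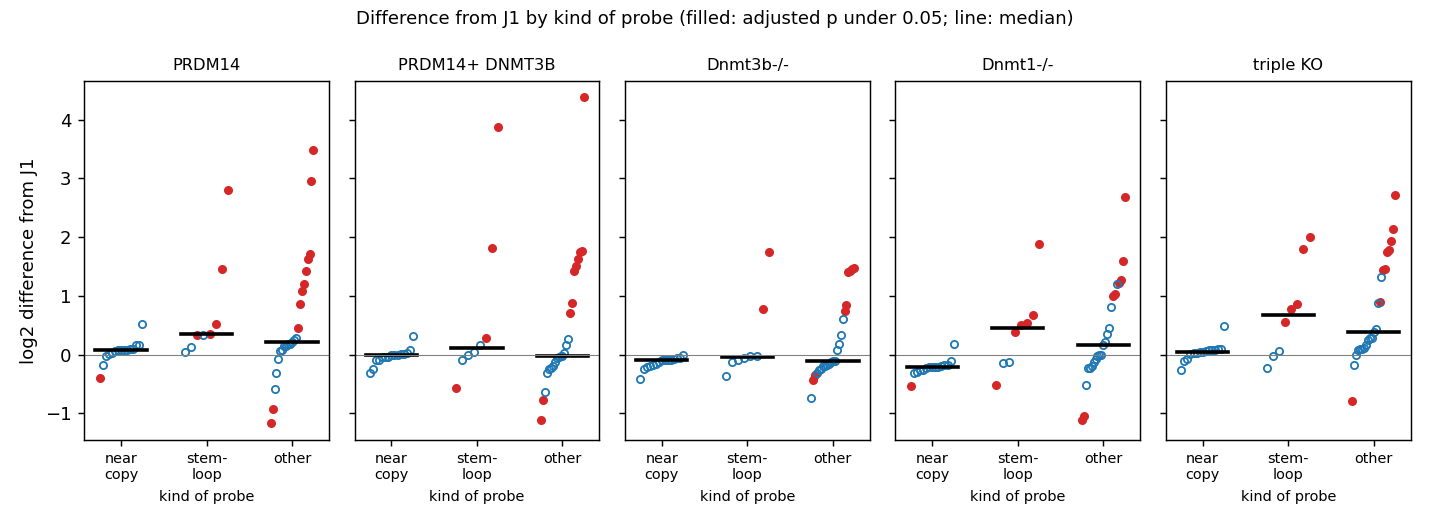
Differences from J1 (log2 units) of the 46 tested histone genes, split by kind of probe (15 near copies of another member's probe, 8 stem-loop probes, 23 others) for each of the 5 groups; filled points passed an adjusted p of 0.05 and lines are medians. The near copies lie in a narrow band around their median, and the tall columns belong to the other kinds.

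Few histone genes differed between the line labelled with both transgenes and the one labelled with Prdm14 alone. Between the lines labelled PRDM14_DNMT3B and PRDM14, 5 of 46 members were called, 3 higher and 2 lower, where 20.8% of all genes were called, 9.89% higher and 10.9% lower. Higher were Hist2h2aa1 by 1.08 ± 0.15 (adjusted p = 0.00707), Hist2h3c2-ps by 0.90 ± 0.12 (adjusted p = 0.0062) and Hist1h2ae by 0.35 ± 0.08 (adjusted p = 0.0312). Lower were Hist1h4h, which fell by 0.77 ± 0.10 (adjusted p = 0.00584), and Hist2h2bb, which fell by 0.61 ± 0.11 (adjusted p = 0.0156). For the rising genes both arrays of the line labelled PRDM14_DNMT3B lay above both of the line labelled PRDM14, so they were farther from J1 in the line with both labels. The count dropped to 3 without either array of the line labelled PRDM14 or without the second of the line labelled PRDM14_DNMT3B, and Hist1h2ae kept its call in 2 of 8 such fits and Hist2h2bb in 5 of 8 (adjusted p up to 0.144 and 0.0858).

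With the replicate number as a block the count between the 2 lines was 11 of 46, 3 higher and 8 lower, where 29.6% of all genes were called. The added falls were Hist2h2be (-1.34, adjusted p = 0.0341), Hist1h3a (-0.43), Hist1h4m (-0.35), Hist1h2be (-0.29), Hist1h3i (-0.29) and Hist1h1a (-0.25). The slides of the line labelled PRDM14 were its own, so no value within a slide exists for this comparison.

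The line labelled PRDM14_DNMT3B was also set against Dnmt3b-/-, on the same 2 slides. Of 46 members 10 were called, 7 higher and 3 lower, where 30.8% of all genes were called, 16.3% higher and 14.5% lower. Hist2h3c2-ps was higher by 2.91 ± 0.12 (7.54-fold, adjusted p = 6.71e-05), Hist2h2aa1 by 2.12 ± 0.15 (4.35-fold, adjusted p = 0.000321) and Hist1h2ae by 1.04 ± 0.08 (adjusted p = 0.000409). Hist2h2ab fell by 0.93 ± 0.12, Hist3h2ba by 0.77 ± 0.08 and Hist1h1e by 0.43 ± 0.09, the last with an adjusted p of up to 0.0852 over the fits without 1 array. Hist1h2bc, higher than J1 in both, did not differ between them past the threshold (0.01 ± 0.15). The count was 6 without the first array of either line. Hist2h2be was not well above background on either Dnmt3b-/- array and was measured on 1 of the 2 arrays of the other line. Its calculated fold of 1.17 uses the mean of both those arrays and is not a strict bound. Hist2h2be did not pass (adjusted p = 0.0601), but passed with the replicate block (0.0301) and with the slide as a fixed block (0.038). Hist1h4m passed with the replicate block at 0.23 (adjusted p = 0.046).

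With the slide as a fixed block, fitted without the line labelled PRDM14, 10 of 63 calls were lost. Values within slides came from the arrays that the calls were made on, and are given as a description. Hist2h2aa1 was 4.17 above J1 on slide 1 and 3.58 on slide 2 in the line labelled PRDM14_DNMT3B, and 1.96 and 1.55 in Dnmt3b-/-. Hist2h3c2-ps was 4.51 and 4.25 above J1 in the former, and 1.37 and 1.55 in the latter. Hist3h2ba was 2.71 above J1 in Dnmt1-/- and 2.73 in the triple knockout on slide 1, the only slide that held them. In those slide 2 pairs with J1, and in the slide 1 pairs of J1 with Dnmt1-/- or the triple knockout, the arrays came from different scan passes.

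Probes named for neighbouring genes of the Hist2 cluster gave different readings. In the mm9 order along chromosome 3, Hist2h2ab, which fell, is followed by Hist2h2ac, a near copy called in none of the 7 comparisons. With the slide as a fixed block Hist2h2ac passed as lower in Dnmt1-/- (-0.36). Then come Hist2h2be and Hist2h3c2-ps, which rose, and the probes named Hist2h2aa2 and Hist2h2aa1. They lie 52 bases apart on the same strand and Hist2h2aa2 is a near copy, so they are not read as neighbouring genes that diverge. Hist2h3c1, Hist2h4 and Hist2h2bb follow, and none of them rose. The median difference of the 1096 tested genes of chromosome 3 was -0.14 in the line labelled PRDM14 and -0.12 in the triple knockout.

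Head-to-head gene pairs allow a narrower look, because H2A and H2B genes are often transcribed away from each other from a shared stretch. In the RefSeq promoter table (GRCm38.p6), 43 of the 49 members had a promoter, and 3 tested pairs had starts on opposite strands at most 1000 bases apart. Hist1h2ae and Hist1h2bg, 180 bases apart, rose together: 1.46 and 1.62 in the line labelled PRDM14, 1.81 and 1.50 in the line labelled PRDM14_DNMT3B, 0.67 and 1.22 in Dnmt1-/-, and 1.79 and 2.14 in the triple knockout, with 0.77 and 0.60 (not past the threshold) in Dnmt3b-/-. Hist1h2an and Hist1h2bp, 240 bases apart, did not: the near-copy Hist1h2an probe gave 0.07 and 0.01 in the lines labelled PRDM14 and PRDM14_DNMT3B where Hist1h2bp gave 1.71 and 1.77. Hist1h2aa and Hist1h2ba, 281 bases apart, gave -1.05 and 0.00 in Dnmt1-/-. The 250 bases before the start of Hist1h2bg, which reach past the start of Hist1h2ae on the other strand, are shown with matches, on either strand, to the TATA, CCAAT and octamer motifs named next in capitals.
H2bc8 (Hist1h2bg), chr13:23571150-23571399, + strand: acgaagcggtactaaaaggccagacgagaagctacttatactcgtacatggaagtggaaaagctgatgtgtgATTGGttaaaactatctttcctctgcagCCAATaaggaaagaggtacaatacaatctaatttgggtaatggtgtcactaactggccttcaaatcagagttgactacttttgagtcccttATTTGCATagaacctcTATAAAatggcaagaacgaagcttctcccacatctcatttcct

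Those motifs are classic elements of histone promoters: the TATA box, the CCAAT box and the octamer element. Over the 250 bases before the start and both strands, TATAAA was found in 22 of 43 member promoters (13% of all 27025 promoters). CCAAT was in 35 of 43 (34.5% of all). The octamer, searched as ATTTGCAT, was in 12 of 43 (1.61% of all). The octamer matches were in 7 of 14 H2A and 5 of 9 H2B promoters, and in 0 of 6 H1, 0 of 6 H3 and 0 of 8 H4 promoters. Matches are letters in this window, and no binding was measured.

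The same window was read for CG, the site of the methylation that the knocked-out enzymes place. CG occurred 9 times in the median member promoter (2 to 34) and 6 times in the median of all 27025. The 7 Hist2 promoters had a median of 20 and the 33 Hist1 promoters 9. The 6 genes called higher in all 5 comparisons that had a promoter ranged from 5 to 34 with a median of 14, and the 35 other tested members from 2 to 29 with a median of 9, so the ranges overlapped. H2ac18 had the most, 34, and H2ac21, which fell, had 7. No methylation was measured in these files. Among the others, H2ac19 (Hist2h2aa2) had 29 and H3c14 (Hist2h3c1) 21, and neither probe passed in the 5 comparisons. The Hist2h2aa2 probe is a near copy of other H2A genes, so its value cannot be taken as a reading of H2ac19 alone. The Hist2h3c1 probe was compared with other member probes only, so whether it reads H3c14 alone was not tested. H2ac8 (Hist1h2ae), which rose in all 5, had 5. The part of CG in these differences was not tested. The promoters of H2ac18 and H2ac21, 2 genes of chromosome 3 that went opposite ways, were chosen after their values were seen and are given from RefSeq with CG in capitals.
H2ac18 (Hist2h2aa1), chr3:96245247-96245496, + strand: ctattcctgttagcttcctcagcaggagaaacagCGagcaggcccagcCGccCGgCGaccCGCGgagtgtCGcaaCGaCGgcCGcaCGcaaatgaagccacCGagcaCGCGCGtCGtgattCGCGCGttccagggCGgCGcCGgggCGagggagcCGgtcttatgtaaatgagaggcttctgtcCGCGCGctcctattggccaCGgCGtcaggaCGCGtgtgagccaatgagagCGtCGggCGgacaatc
H2ac21 (Hist2h2ab), chr3:96219635-96219884, + strand: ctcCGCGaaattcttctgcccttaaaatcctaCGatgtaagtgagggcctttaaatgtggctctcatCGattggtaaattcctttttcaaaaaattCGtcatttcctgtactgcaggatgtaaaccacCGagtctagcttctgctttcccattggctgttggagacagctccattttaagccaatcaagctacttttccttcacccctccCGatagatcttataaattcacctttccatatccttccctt

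Genes that make or handle histone mRNA went both ways. The counts of the lists below stand beside 20.9%, 19.5%, 10.8%, 13.1% and 13.9% of all genes called higher and 18.8%, 19.8%, 10.2%, 15.1% and 14.6% called lower in the 5 comparisons. Of 29 factors of histone transcription and 3′ processing 27 were tested: 9 rose and 2 fell in the line labelled PRDM14 (median 0.10), 7 and 3 in the line labelled PRDM14_DNMT3B (0.06), 2 and 5 in Dnmt3b-/- (-0.14), 2 and 10 in Dnmt1-/- (-0.36), and 2 and 7 in the triple knockout (-0.23). The largest called falls were those of Sympk, Mblac1, Ncbp2, Pou2f1 and Ncbp1, in the order of the 5 comparisons. Slbp, the stem-loop binding protein, fell by 0.51 ± 0.09 in the line labelled PRDM14_DNMT3B, by 0.44 ± 0.09 in Dnmt3b-/- and by 0.47 ± 0.11 in the triple knockout. It is named here for its role and was chosen after its values were seen. Its values in the line labelled PRDM14 and in Dnmt1-/- are not given here. Fip1l1, a poly(A) factor, had the largest rise of the list in the line labelled PRDM14 at 0.85 ± 0.08. Upf1, which acts in histone mRNA decay, had it in the line labelled PRDM14_DNMT3B at 0.99 ± 0.10.

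Of 17 replication-independent variant genes 12 were tested, and 3, 3, 1, 2 and 2 rose while 2, 5, 0, 2 and 1 fell in the 5 comparisons. H1fx, a linker histone expressed outside S phase, rose by 1.13 ± 0.11, 1.04 ± 0.11, 1.24 ± 0.13 and 1.18 ± 0.13 in all but Dnmt3b-/-, where its difference was 0.11 ± 0.11. H2afx, in Dnmt3b-/-, rose by 0.57 ± 0.09. Of the 22 chaperone and deposition genes, 6, 6, 2, 0 and 2 rose and 3, 3, 1, 5 and 2 fell by limma.

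The 40 genes of S phase and DNA replication, had medians of 0.12, 0.03, -0.15, -0.35 and -0.05 in the 5 comparisons. Of them 8 rose and 4 fell in the line labelled PRDM14, 6 and 5 in the line labelled PRDM14_DNMT3B, 2 and 4 in Dnmt3b-/-, 0 and 9 in Dnmt1-/-, and 2 and 4 in the triple knockout. Mcm5, a subunit of the replicative helicase, had the largest rise in the line labelled PRDM14 at 0.78 ± 0.09, and Orc1, of the origin recognition complex, the largest fall in Dnmt1-/- at -0.84 ± 0.11. Of 15 tested genes of mitosis and cell cycle exit, Cdkn1c, an inhibitor of cyclin-dependent kinases, had the largest fall in each of the 5 comparisons, from -1.18 ± 0.08 to -2.28 ± 0.08, and Cdkn1a the largest rise in Dnmt1-/- at 2.18 ± 0.16. The part of cell cycle in the histone values was not tested.

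Markers of other cell types moved between the groups too. Of 8 fibroblast markers 7 were tested, and 0, 0, 2, 3 and 4 rose while 5, 4, 0, 1 and 0 fell in the 5 comparisons. Their summed linear level, in units of the 75th percentile, was 3.72 to 4.09 in J1, 1.31 to 1.40 and 1.65 to 2.11 in the lines labelled PRDM14 and PRDM14_DNMT3B, 9.54 to 9.61 in Dnmt3b-/-, 7.79 in Dnmt1-/- and 7.48 in the triple knockout, with Lum below that mark on all 10 arrays. Of 6 trophoblast markers 5 were tested and Elf5 was not above background: the sum was 136 to 144 in J1, 34.5 to 35.1, 27.0 to 28.0, 223 to 237, 254 and 49.0 in the other groups in that order. The 5 primitive endoderm markers, all 5 higher in the triple knockout, summed to 0.257 to 0.286 in J1, 0.823 in Dnmt1-/- and 2.21 in the triple knockout. The 4 neural markers summed to 14.7 to 15.3 in J1 and from 11.7 to 24.8 elsewhere. The 10 embryonic stem cell markers summed to 1030 to 1140 in J1 and to 831 in Dnmt1-/-, the lowest. In bulk RNA, fewer cells of a type and less RNA per cell cannot be told apart, and the part of these markers in the histone values was not tested.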

How the data were processed

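Total RNA of 10 samples was hybridised to Agilent one-colour 60-base arrays. The deposited scanner files hold fluorescence intensity per spot, made with Agilent Feature Extraction 10.7.3.1, with probe coordinates on mm9 per the file headers. The authors' deposited value table holds log2 values of the same arrays, each column with a median of 4.243. Its columns correlated with log2 intensity of their own array at r of at least 0.99931 across spots. Its exact scaling is unknown, and it served as an alternative. The submitters' processing notes also name limma, without a version.

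Control spots and outlier spots (89 to 167 per array) were left out, and no spot was saturated. From each log2 intensity (gProcessedSignal) the array's 75th percentile was subtracted, which was 243 to 337 units of intensity, and spots of a probe were averaged. Between 50.0% and 56.0% of spots were well above background, and the number of arrays limits the precision. Each gene was read from its brightest probe, by mean over the arrays. Tested were genes whose probe was well above background in all arrays of some group, 23636 less 10 with missing values. Two-sided tests came from limma 3.58.1 in R 4.3.3, 1 fit over all 10 arrays with no covariate (residual degrees of freedom 4, prior 1.733), with Benjamini-Hochberg adjustment. Dnmt1-/- and the triple knockout have 1 array each, and their spread was taken from the groups with 2. The procedure was run on simulated data with the same spread for every gene and independent arrays. That run cannot show how the p-values hold for these data, where same-numbered replicates deviated together. Sequence counts and lists used Python 3.11.15 with pandas 2.3.3.

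Same-numbered replicates deviated together, with r of 0.26 to 0.507 over 18195 genes for the 6 pairs of groups, so the numbers were taken to pair the samples. The pairing comes from this check and, for slides 1 and 2, from the slide; the fit with the replicate block was an alternative. Alternatives were normexp (offset 50), quantile normalization, the value table, 2 other filters and the mean of all probes. Others were slide as a random or fixed block, and each array left out. The fit with the slide as a fixed block left out the arrays of the line labelled PRDM14 and gave no comparison with that line.

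Gene names are those of the scanner files, and 48 of 49 members matched RefSeq (GRCm38.p6) by accession. The RefSeq list holds 70 genes of these clusters, of which 48 have a member probe. The members, lists and tests were chosen with earlier results of these data known. Named genes were, per comparison, the 3 called members with the largest rise and the 3 with the largest fall, per type the 3 with the highest mean level and the gene with the widest range, members whose probes disagree, and all members outside Hist1; other members were named where a count or a kind of probe turned on them, after their values were seen.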

Additional observations from a re-analysis of the deposited data

How the results depend on the processing

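Of 117 counts of called members under the alternatives, 111 stayed within 1.5 times the reported count. The others lay in 2 comparisons. Between the lines labelled PRDM14_DNMT3B and PRDM14 (5 reported) the replicate block gave 11, and leaving out 1 array gave 3 to 6. Between the line labelled PRDM14_DNMT3B and Dnmt3b-/- (10 reported) leaving out 1 array gave 6 to 10. Against J1 the counts without 1 array ran from 12 to 18 in the line labelled PRDM14, 12 to 14 in the line labelled PRDM14_DNMT3B, 7 to 9 in Dnmt3b-/-, 10 to 13 in Dnmt1-/- and 11 to 15 in the triple knockout. The replicate block added 21 calls to the 85 reported and ended none; those beside the results are all of them, and it changed no other call. The slide as a fixed block, fitted without the line labelled PRDM14, added 16 to 63 and ended 10. Of the 85 calls, 60 were kept without each array in turn. No called difference of a named gene changed sign under any alternative run: of 66 pairs of a named gene and a comparison, 46 kept their call throughout. The median member difference moved by more than 0.111, the spread between replicates, in 18 of 117 cases, 14 of them without 1 array; with quantile normalization it was 0.095 in Dnmt1-/-, where the reported value was -0.119, and 0.249 in the triple knockout, where it was 0.104. Without J1 replicate 1 or 2 it was 0.302 or 0.023 in the line labelled PRDM14, and the cause was not tested. The share of all genes called also depended on the setting: in Dnmt3b-/- it was 8.20% with no filter on dim probes, 35.9% with the slide as a random block and 10.3% to 17.5% without 1 array, against 21.0%. Without the filter it was 11.2% in Dnmt1-/-, 12.7% in the triple knockout, 22.3% and 20.9% in the lines labelled PRDM14 and PRDM14_DNMT3B, and 8.22% and 15.9% in the comparisons of the latter with the line labelled PRDM14 and with Dnmt3b-/-. With the random block it was 42.8% in Dnmt1-/-. Signal over background limited Hist2h2be, Hist2h3c2-ps, Hist1h2bg and Hist1h2ac.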
